A study of Mus musculus with 12 samples.

Results

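The Hox genes are the 39 genes of the Hoxa, Hoxb, Hoxc and Hoxd clusters, and they were taken by symbol from the 43346 genes of the deposited table with no filter on expression. RNA-seq counts came from 12 mouse vein libraries collected 7 days after surgery: 6 sham libraries from the jugular vein, and 6 AVF-CKD libraries from the venous limb of the AVF. The letters are not spelled out in the labels and are read here as arteriovenous fistula (a surgical join of artery and vein) and chronic kidney disease. The labels state no strain, sex or age, and do not name the vein that formed the limb, so vessel, surgery and kidney disease cannot be told apart between the groups. Nothing in the labels says that each library came from its own mouse, so p-values describe the spread among these libraries, which may be technical. Total counts were 43445591 to 60142016 per sham library and 38653830 to 52003341 per AVF-CKD library.

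Hox genes encode homeodomain transcription factors. They lie in order along each cluster, and genes at the 3′ end (low paralog numbers) are switched on nearer the head of the embryo, while genes at the 5′ end (high numbers) are switched on nearer the tail. Genes of the same number in different clusters are paralogs, descended from a common ancestor. Adult fibroblasts and smooth muscle cells keep part of this code, so that connective tissue of different body sites carries different Hox messages. In bulk tissue, fewer cells of a type and less RNA per cell cannot be told apart.

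In the Hoxd cluster, on chromosome 2, expression went from the highest of all Hox genes at Hoxd8 to 1 count in all libraries at Hoxd11, over neighbouring genes. The promoters of the 4 genes that span this edge are shown for that reason, from 250 bases before to 50 bases after the start, 5′ to 3′ on the + strand, from RefSeq (GRCm38.p6). Capitals mark CpG pairs.
Hoxd8 (chr2:74704365-74704664): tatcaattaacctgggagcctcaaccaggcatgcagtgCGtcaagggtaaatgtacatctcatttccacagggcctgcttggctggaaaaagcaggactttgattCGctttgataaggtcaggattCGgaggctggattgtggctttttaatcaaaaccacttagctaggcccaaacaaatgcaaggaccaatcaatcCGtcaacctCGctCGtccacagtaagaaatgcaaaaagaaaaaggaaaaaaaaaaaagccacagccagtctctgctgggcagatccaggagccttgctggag
Hoxd9 (chr2:74697513-74697812): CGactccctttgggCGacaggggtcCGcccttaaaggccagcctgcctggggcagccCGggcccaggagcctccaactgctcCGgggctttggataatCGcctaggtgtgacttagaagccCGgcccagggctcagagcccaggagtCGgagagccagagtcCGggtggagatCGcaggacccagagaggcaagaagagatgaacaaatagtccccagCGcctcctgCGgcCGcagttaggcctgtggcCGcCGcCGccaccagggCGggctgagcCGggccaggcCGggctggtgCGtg
Hoxd10 (chr2:74691641-74691940): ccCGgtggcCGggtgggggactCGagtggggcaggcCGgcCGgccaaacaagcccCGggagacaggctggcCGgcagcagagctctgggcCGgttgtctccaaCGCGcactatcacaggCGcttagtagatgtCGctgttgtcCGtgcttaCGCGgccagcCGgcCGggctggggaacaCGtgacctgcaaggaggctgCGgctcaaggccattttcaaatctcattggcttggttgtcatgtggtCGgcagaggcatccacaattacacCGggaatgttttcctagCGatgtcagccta
Hoxd11 (chr2:74679308-74679607): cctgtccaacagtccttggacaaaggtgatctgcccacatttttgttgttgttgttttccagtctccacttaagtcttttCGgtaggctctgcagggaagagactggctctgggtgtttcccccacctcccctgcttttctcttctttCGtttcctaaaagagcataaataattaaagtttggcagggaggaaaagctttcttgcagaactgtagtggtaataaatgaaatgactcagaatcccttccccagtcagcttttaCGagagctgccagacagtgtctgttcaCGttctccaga
These windows held 6 CpG pairs for Hoxd8, 20 for Hoxd9, 22 for Hoxd10 and 4 for Hoxd11, where the median of 32851 promoters was 7. RefSeq windows were found for 22 of the 39 genes. The fewest were thus in the windows of the most and the least expressed of these 4 genes, although the window of a second Hoxd11 start held 25. Over the Hox genes, the 8 windows of genes counted as on (defined next) held 4 to 29 CpG pairs, and the 16 windows of the others 4 to 45. Of all promoters, 26.5% held 20 or more.

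Expression was read per length, as counts-per-million (CPM, on TMM-scaled library totals) divided by the gene's length in kilobases, and averaged over the 12 libraries. Levels of at least 1 are called on and levels from 0.1 to 1 low. On this scale 16 of the 39 Hox genes were on, 8 were low, 7 were near zero and 8 had 0 counts in all libraries. The on genes belonged to paralog groups 1 to 9, and no gene of groups 10 to 13 was on. Near the limit were Hoxc6 at 1.36 inside it, and Hoxd3 at 0.972 and Hoxa7 at 0.929 outside it. The deposited length of Hoxa7 was 3761 bases, where GENCODE M21 gives 2876, and with the shorter length Hoxa7 would be on. The limit matters for the count: 8 genes reached a level of 2.

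**Figure D1:**
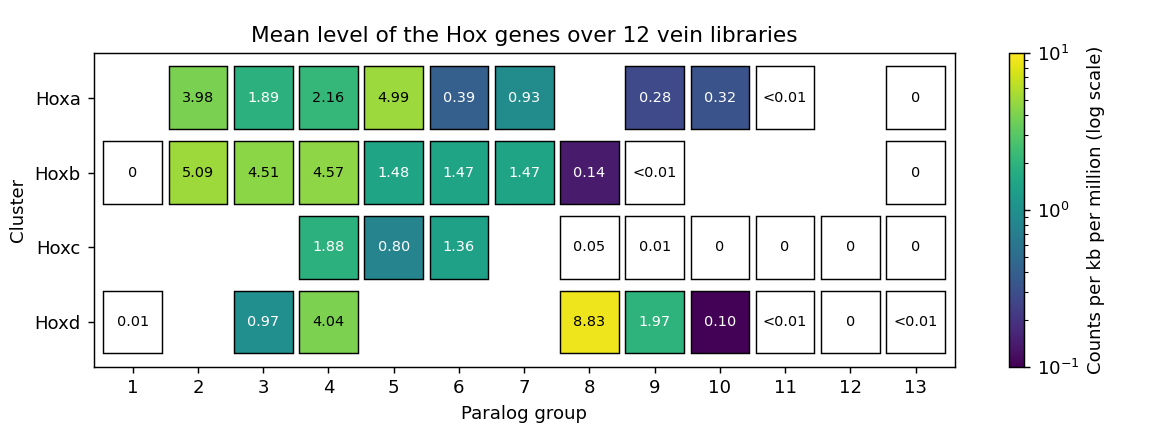
Mean level (CPM per kilobase, log colour scale) of Hox genes over 12 libraries, by cluster and paralog group; white cells are below 0.1, and blanks are positions with no gene or with none reported here. Filled cells run up to group 10 and none lies beyond it.

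The strongest signal was Hoxd8, a gene of the middle of its cluster, at 8.83 ± 1.43 (SD, n = 12) CPM per kilobase. Its lowest library, at 6.80, lay above the highest library of the next gene, Hoxb2, at 6.79, but below the highest of Hoxa5, at 6.86. Hoxb2, which patterns the hindbrain in the embryo, averaged 5.09 ± 0.665. Then came Hoxa5 (4.99 ± 1.03), which patterns the cervical and upper thoracic skeleton and the lung, Hoxb4 (4.57 ± 0.548), known for its action in blood stem cells, Hoxb3 (4.51 ± 0.963), Hoxd4 (4.04 ± 0.734) and Hoxa2 (3.98 ± 0.900), which gives the second pharyngeal arch its identity. From Hoxb2 down, neighbours in this order up to Hoxa2 differed by less than their SD between libraries. A second tier followed, with Hoxa4 at 2.16, Hoxd9 at 1.97, Hoxa3 at 1.89 and Hoxc4 at 1.88, and below it Hoxb5 at 1.48, Hoxb7 at 1.47, Hoxb6 at 1.47 and Hoxc6 at 1.36. Hoxa3 is needed for the thymus, the parathyroid and the carotid body, organs of the neck. Hoxd8 stood at percentile 78.8 of the levels of all 30299 genes with any count.

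At the 3′ ends, the hindbrain gene Hoxb1 had 0 counts and its paralog Hoxd1 had 14 counts in 7 libraries. In the other direction, the last gene on differed by cluster. In Hoxd it was Hoxd9 (1.97), and Hoxd10, at 0.103 ± 0.0702 per kilobase, fell just above the limit of the low class with 112 counts in total. In Hoxb it was Hoxb7 (1.47). The next gene, Hoxb8, was at 0.138, and Hoxb9 had 6 counts in total, 2 in AVF-CKD 5 and 4 in AVF-CKD 6. In Hoxc it was Hoxc6 (1.36), above its 3′ neighbour Hoxc5 (0.795), with Hoxc8 at 0.0462 and Hoxc9 at 0.0105. Hoxc6 and Hoxc8 are genes of the brachial region in the embryonic trunk.

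The Hoxa cluster fell steeply after Hoxa5 but kept an uneven low signal over more genes than the other clusters. Hoxa5 (4.99) was followed by Hoxa6 at 0.394, Hoxa7 at 0.929, Hoxa9 at 0.283 and Hoxa10 at 0.324, all with counts in all 12 libraries. Hoxa9 is a blood cell and endothelial regulator, and Hoxa10 patterns the lumbar skeleton and the uterus. Beyond Hoxa10 the signal stopped, with 1 count for Hoxa11 and 0 for Hoxa13.

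Genes of groups 11 to 13, which shape the distal limb, the hindgut and the urogenital tract, gave 3 counts in all, over 9 genes and all 12 libraries. These were 1 count each for Hoxa11 in sham 3, Hoxd13 in AVF-CKD 1 and Hoxd11 in AVF-CKD 5. The 8 genes with 0 counts were Hoxa13, Hoxb1, Hoxb13, Hoxc10, Hoxc11, Hoxc12, Hoxc13 and Hoxd12. A count of 0 over all libraries allows up to 0.00514 CPM, and in a single library up to 0.0503 to 0.0775 CPM, counting error alone.

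Summed over its members, the Hoxb cluster held the largest mean share of the Hox signal per length, 34.3% (range over libraries 31.7% to 38.3%). Hoxa held 29.2% (26.2% to 31.4%) and Hoxd 29.1% (25.4% to 31.9%), so the ranges of these 2 clusters overlapped almost wholly. Hoxc held 7.45% (4.65% to 9.29%), below the others in all 12 libraries. By position, groups 1 to 5 held 68.4% of the signal (64.8% to 71.5%), groups 6 to 8 held 26.7% (24.1% to 29.4%) and groups 9 and 10 held 4.92% (4.35% to 5.79%). These shares include genes whose models share exons with others, as described next. No library put less than 64.8% in groups 1 to 5.

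Some of these levels are uncertain because gene models share exons. Of 849 gene models that other models cover wholly, 745 had counts, so reads in shared bases appear to have been counted for more than 1 gene. Another GENCODE model covers 62.8% of the exonic bases of Hoxd3, 52.3% of Hoxd4, 52.9% of Hoxb3 (all of it by the antisense Hoxb3os), 27.3% of Hoxb2 and 27.1% of Hoxa3. The kit used does not mark strand, so sense and antisense reads there cannot be told apart. Among the 23 Hox genes with no such overlap, 8 were on: Hoxa5, Hoxb4, Hoxb6, Hoxb7, Hoxc4, Hoxc6, Hoxd8 and Hoxd9. Of the 8, Hoxd8 was highest at 8.83, and those in groups 1 to 5 were Hoxa5 at 4.99, Hoxb4 at 4.57 and Hoxc4 at 1.88. Hoxd3, Hoxd4, Hoxb3, Hoxb2 and Hoxa3 all belong to groups 1 to 5, so the share of these groups may hold reads counted repeatedly. Of the same 8 genes, those in groups 6 to 8 were Hoxd8 at 8.83, Hoxb7 at 1.47, Hoxb6 at 1.47 and Hoxc6 at 1.36. By these values groups 1 to 5 did not lead groups 6 to 8 among the genes free of overlap. Shares per library were not computed without the overlapping genes, so the order over all Hox genes is uncertain.

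No Hox gene was called between AVF-CKD and sham (edgeR quasi-likelihood test over 18965 genes, adjusted p below 0.05), where 0% of all genes were called higher and 0% lower. Of the 39, 23 passed the filter on low counts and were tested, and 0 were called. By sign, 19 of the 23 were lower and 4 higher in AVF-CKD, with a median log2 fold change of -0.16, where 50.9% of all genes were lower and the median was -0.0025. At an unadjusted p below 0.05, 3 were lower (Hoxa5 and Hoxb5 among them) and 0 higher, where 4.08% of all genes were lower and 5.26% higher at that limit. In 0 of the 23 were the groups free of overlap, where 0.221% of all genes were lower and 0.417% higher without overlap. DESeq2, which called 0.337% of all genes higher and 0.2% lower, called 0 Hox genes. At an unadjusted p below 0.05 it had 5 of the 23 lower, where 2002 of 18965 genes passed that limit in either direction.

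**Figure D2:**
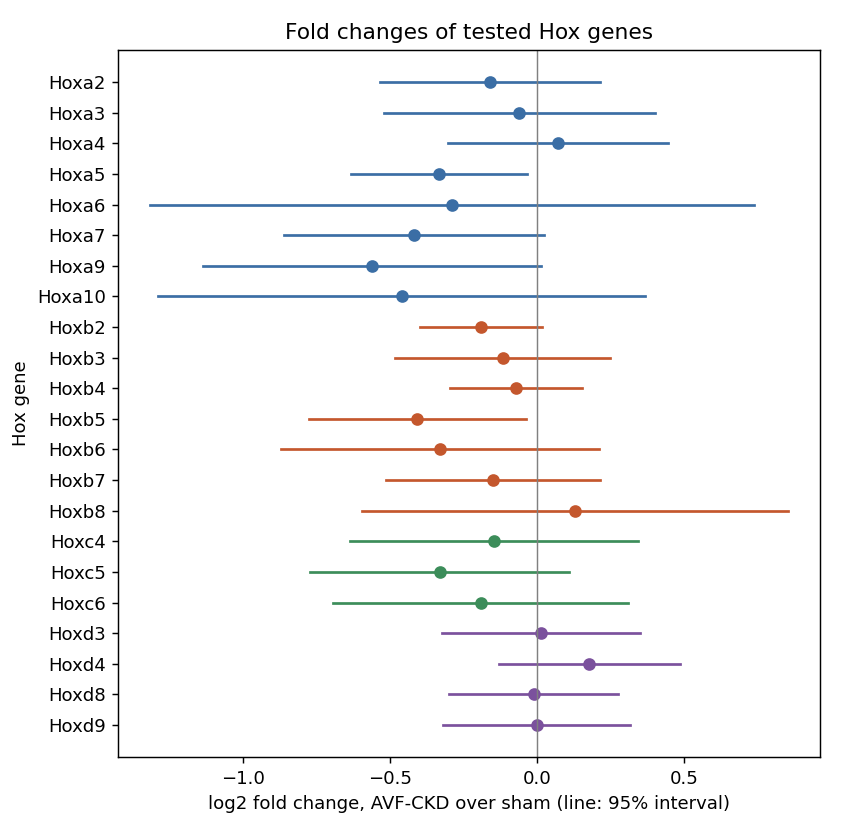
Log2 fold change (AVF-CKD over sham) of tested Hox genes with 95% intervals from the edgeR fit, coloured by cluster. The intervals of Hoxa5 and Hoxb5 lie below 0 before adjustment, and those of the 4 Hoxd genes all include 0.

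Hoxa5, the most abundant gene of its cluster per length (Hoxa3 had the higher CPM), lay between 7.42 and 12.9 CPM in sham (median 10.6) and between 6.88 and 9.59 CPM in AVF-CKD (median 8.04). Sham 1, 4 and 6 and, by a small margin, sham 2 were above all AVF-CKD libraries, and sham 5 lay among the low ones. The log2 fold change was -0.34 ± 0.14 (SE; edgeR adjusted p = 0.501).

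Hoxb5, a gene of cervical identity that in mouse also acts in angioblasts, lay between 3.74 and 6.15 CPM in sham (median 4.66) and between 2.46 and 4.95 CPM in AVF-CKD (median 3.4). AVF-CKD 6 was as high as the sham libraries, and the other 5 were in or below their lower part. The log2 fold change was -0.41 ± 0.17 (edgeR adjusted p = 0.502).

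The unadjusted count depended on single libraries. The count of 3 fell to 1 without sham 1, without sham 4 or without AVF-CKD 3, and rose to 5 without sham 2 and to 7 without sham 5. Over all genes, the number at an unadjusted p below 0.05 in either direction ran from 1252 without AVF-CKD 4 to 2132 without sham 5. Sham 1 was the highest of all 12 libraries for 12 of the 23 tested genes, and AVF-CKD 3 the lowest for 7. Without sham 1, 16 of the 23 genes were lower in AVF-CKD, and the median over the 23 was -0.084. Neither Hoxa5 nor Hoxb5 was below that limit without sham 1, without sham 4 or without AVF-CKD 3.

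Genes of the Hoxd cluster had fold changes near or above 0. Hoxd8 lay between 19.96 and 29.0 CPM in sham (median 24.1) and between 18.7 and 29.1 CPM in AVF-CKD (median 24.2), nearly the same range. Its log2 fold change was -0.01 ± 0.13 (edgeR adjusted p = 0.987), with a 95% interval of -0.30 to 0.28. Hoxd9 was at -0.0017 and Hoxd3 at 0.01. Hoxd4 had the smallest p of the higher genes, at 8.55 to 13.9 CPM in sham (median 11.4) and 10.4 to 15.8 CPM in AVF-CKD (median 12.5), so that log2 fold change was 0.18 with SE 0.14 (adjusted p = 0.736, edgeR), and 0.10 without sham 3 or without AVF-CKD 5. The summed level of the Hoxd cluster was 15.7 ± 2.70 CPM per kilobase in sham and 16.2 ± 2.36 in AVF-CKD (SD, n = 6 each). For Hoxa it was 17.3 ± 3.39 and 14.8 ± 1.96, for Hoxb 19.8 ± 2.96 and 17.7 ± 2.16, and for Hoxc 4.37 ± 1.23 and 3.81 ± 0.490. The libraries of the groups overlapped for each cluster. Neither these sums nor the difference between clusters was tested, and without sham 1 the log2 ratio of the sums was closer to 0 for Hoxa (-0.125 against -0.218), Hoxb (-0.0816 against -0.166) and Hoxc (-0.0998 against -0.198).

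**Figure D3:**
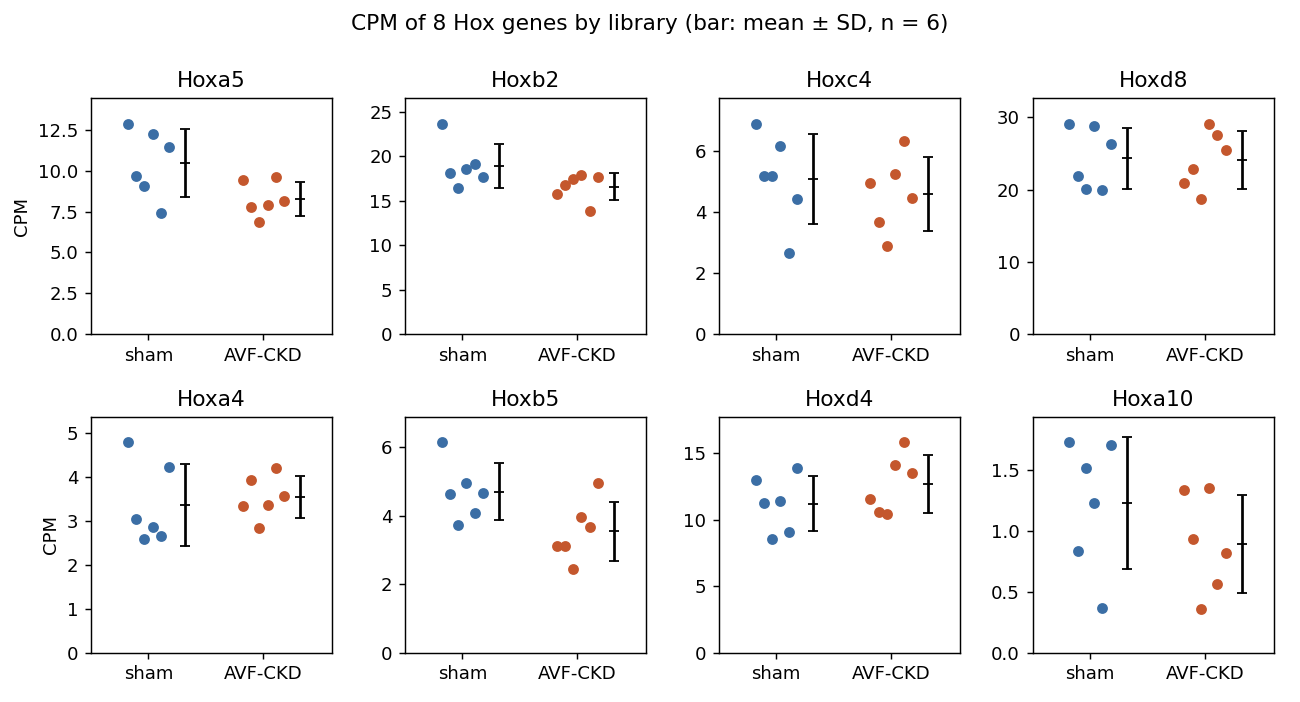
CPM of 8 Hox genes in each library (points), with mean and SD (bar) of 6 sham and 6 AVF-CKD libraries. The groups overlap in all 8 panels, and Hoxa10 spreads from 0.360 to 1.73 CPM.

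For Hoxb2, the most abundant Hoxb gene per length, sham ran from 16.5 to 23.7 CPM (median 18.3) and AVF-CKD from 13.9 to 17.9 CPM (median 17.1), with a log2 fold change of -0.19 and SE 0.10 (adjusted p = 0.556, edgeR). Sham 1 stood well above the rest, and without it the log2 fold change of Hoxb2 was -0.12. For Hoxc4, which leads its cluster, sham ran from 2.67 to 6.88 CPM (median 5.18) and AVF-CKD from 2.88 to 6.33 CPM (median 4.70), and log2 fold change was -0.15 with SE 0.23 (adjusted p = 0.874, edgeR). The Hoxc4 value rested on single libraries, at -0.04 without sham 1, -0.09 without sham 4, -0.28 without sham 5, -0.09 without AVF-CKD 2, -0.05 without AVF-CKD 3 and -0.26 without AVF-CKD 5. The other genes above 0 were Hoxa4 at 0.07 ± 0.17 (edgeR adjusted p = 0.928) and Hoxb8 at 0.13 ± 0.34 (edgeR adjusted p = 0.936). With single libraries left out, the Hoxa4 value ran from 0.0011 (without sham 3) to 0.20 (without sham 1), and the sign of Hoxb8 turned without sham 5 (-0.024) or without AVF-CKD 4 (-0.123). Hoxa4 lay between 2.59 and 4.79 CPM in sham and between 2.84 and 4.20 CPM in AVF-CKD, and Hoxb8 between 0.152 and 0.457 and between 0.191 and 0.684 CPM. Both pairs of ranges overlapped over most of their length. For 11 of the 23 genes the 95% interval excluded a change of 1.5-fold in either direction, and for 20 a change of 2-fold. The widest interval, for Hoxa6, ran from -1.32 to 0.74.

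Variation between libraries was larger for most of the low genes than for the strongest ones. The coefficient of variation over all 12 libraries was 11.99% for Hoxb4, 13.1% for Hoxb2, 16.2% for Hoxd8, 20.7% for Hoxa5 and 22.6% for Hoxa2. For low genes it was 26.2% for Hoxc5, 28.8% for Hoxa7, 39.4% for Hoxa9 and 45.7% for Hoxa10. It was 39.5% for Hoxb8, 55.1% for Hoxa6 and 67.9% for Hoxd10, but 17.4% for Hoxd3, which was also low. Hoxb6, which was on, was at 35.5%. Counts in single libraries fell to 2 for Hoxd10, 5 for Hoxa6 and 7 for Hoxb8, so counting error adds to their variation. Hoxa10 ran from 0.369 to 1.73 CPM in sham (median 1.37) and from 0.360 to 1.35 CPM in AVF-CKD (median 0.873). Sham 5 had 1.37 CPM of Hoxc6, where the remaining sham libraries had 3.47 to 4.49 CPM. Sham 5 was thus low for Hoxa10 and Hoxc6, and also had the lowest Hoxc4 of all (2.67 CPM).

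All 8 endothelial and all 3 venous markers had counts in every library, and the summed venous level (Nr2f2, Ephb4 and Aplnr) was 47.3 to 70.95 CPM per kilobase in sham and 39.5 to 59.2 in AVF-CKD. All 7 fibroblast markers (Pdgfra, Col1a1, Col1a2, Dcn, Lum, Pi16 and Dpt) were also present, with a summed level of 4043 to 6646 in sham and 3680 to 6394 in AVF-CKD. The 10 skeletal muscle markers summed to 335.7 to 7564 in sham and 515.2 to 7907 in AVF-CKD, and none of the 10 was at 0 in any library. Of the 10 neck gland and epithelial markers, Smr2 was at 0 in all libraries, and their sum was 3.19 to 27.2 in sham, highest in sham 6, and 3.53 to 7.69 in AVF-CKD. The 5 thymus and thyroid markers summed to 6.18 in AVF-CKD 1 and to 0.149 or less in the other libraries. The 6 smooth muscle markers summed to 700.5 to 1152 in sham (median 1106) and 508.7 to 945.3 in AVF-CKD (median 788.1). Medians in sham and AVF-CKD were 249.2 and 196 for endothelium, 54.55 and 49.28 for venous markers, 5055 and 4630 for fibroblasts and 2805 and 2223 for skeletal muscle. Of the lists described here, only the leukocyte list and the thymus and thyroid list (0.1155 and 0.1203) were higher in AVF-CKD by median. The 7 fat markers summed to 551.6 to 2598 in sham (median 908.6) and 424.6 to 889.7 in AVF-CKD (median 584.1). The 6 leukocyte markers summed to 3348 to 6741 in sham (median 4620) and 3308 to 6916 in AVF-CKD (median 5967), higher by median. Lyz2 alone made up most of the leukocyte sum, with a mean level of 4842, and Cd68 came next at 171. The groups overlapped in each of these sums, and their part in the Hox differences was not tested.

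Some Hox levels moved with the summed fibroblast markers from library to library. Matrix genes made up most of that sum, with mean levels of 1420 for Dcn, 1204 for Col1a1, 923 for Col1a2, 744 for Dpt and 545 for Lum. Pi16 was at 38.7 and Pdgfra at 27.0, so the sum mostly follows matrix transcripts. The fibroblast sum was highest in sham 1 (6646) and AVF-CKD 5 (6394), and lowest in AVF-CKD 2 (3680) and AVF-CKD 3 (3692). Over 12 libraries Hoxc4 followed it with Pearson's r = 0.818 (permutation p = 0.00142, adjusted p = 0.0157) and Spearman's rho = 0.785 (permutation p = 0.00357, adjusted p = 0.0361). Hoxd8 did so with r = 0.794 (permutation p = 0.00261, adjusted p = 0.0157) and rho = 0.755 (permutation p = 0.00601, adjusted p = 0.0361). Without the 2 libraries farthest from the median of the sum, r was 0.730 for Hoxc4 and 0.795 for Hoxd8, and within sham and within AVF-CKD it was 0.832 and 0.824 for Hoxc4 and 0.776 and 0.833 for Hoxd8.

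For the leading genes of Hoxa and Hoxb the relation did not pass the adjusted threshold. Hoxa5 had r = 0.617 (permutation p = 0.0333, adjusted p = 0.0999) and rho = 0.601 (permutation p = 0.043, adjusted p = 0.135). Its r was 0.380 without the 2 farthest libraries, 0.829 within sham and 0.523 within AVF-CKD. Hoxb2 had r = 0.320 (adjusted permutation p = 0.548; rho = 0.336, adjusted permutation p = 0.382), with 0.808 within sham, -0.394 within AVF-CKD and -0.327 without the 2 farthest libraries. With the skeletal muscle sum, adjusted permutation p was 0.739 or more for r in all 4 genes. With the leukocyte sum r was negative in all 4, with adjusted permutation p of 0.0999 or more. The largest was for Hoxd8, with r = -0.629 (permutation p = 0.033, adjusted p = 0.0999) and rho = -0.594 (permutation p = 0.045, adjusted p = 0.135). Its r was -0.592 within sham and -0.702 within AVF-CKD, whereas that of Hoxb2 was 0.480 within AVF-CKD. These 12 relations, between the leading gene of each cluster and 3 marker sums, were two-sided, were chosen after the values were seen, and use levels that share each library's scaling. The adjustment covers these 12 relations alone and does not account for that choice. The part of the fibroblast markers in the differences between sham and AVF-CKD was not tested.

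**Figure D4:**
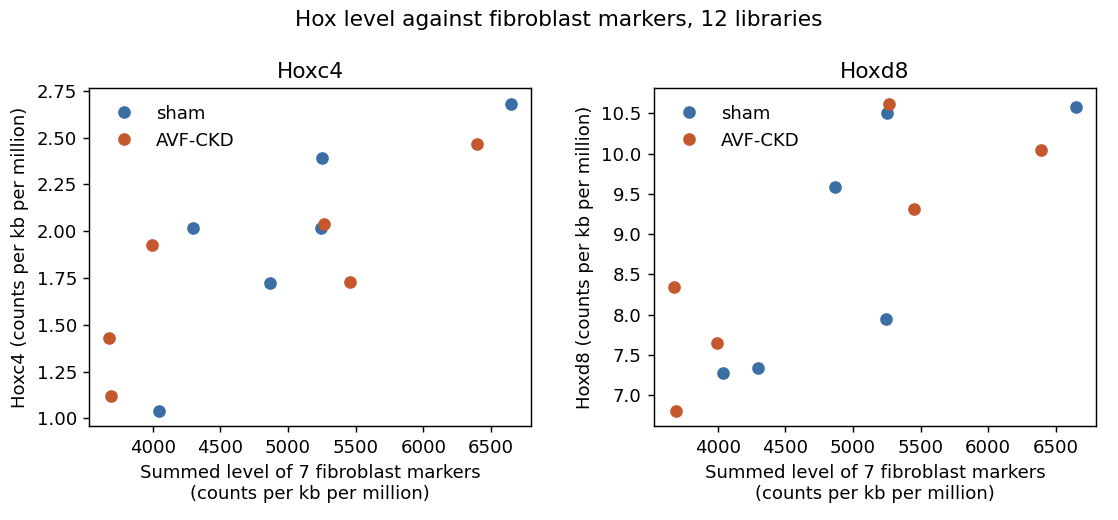
Level of Hoxc4 and Hoxd8 against the summed level of 7 fibroblast markers (all in CPM per kilobase) in 12 libraries. Libraries with a higher fibroblast sum mostly have higher levels of both genes (r = 0.818 and 0.794).

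Of 16 noncoding RNAs of the clusters found in the table, 7 were tested and 5 were on. Hoxb3os, antisense to Hoxb3 and Hoxb2, was the most abundant at 7.38 CPM per kilobase, with 76.2% of its bases shared with other models. Hotairm1, of the Hoxa cluster, was at 6.08 and had the smallest p of the list (6.70 CPM ± 0.667 in sham, 5.76 CPM ± 0.186 in AVF-CKD, SD, n = 6 each). The change was -0.22 ± 0.09 on the log2 scale (SE; edgeR adjusted p = 0.496). Hottip, which in human cells acts on the 5′ end of the Hoxa cluster, had 0 counts, and Hotair, which lies among the 5′ Hoxc genes, had 1. Hoxa11os had 1 count. None was called, 6 of the 7 had negative fold changes, where 50.9% of all genes did, and the median was -0.17. Other models covered 43.1% of the bases of Hotairm1, 30.7% of Hoxaas3 and 15% of Hoxaas2. For Hoxb5os it was 14.4% and for Hoxd3os1 12.1%, so the fold changes of these RNAs may partly repeat those of overlapping genes.

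Hox proteins bind DNA with the TALE cofactors, and 8 of the 9 genes of the Pbx, Meis and Pknox families were on. All 9 were tested and 0 were called, with 5 positive and 4 negative fold changes and a median of 0.0012. Pbx2 was both the most abundant and the one with the smallest p (51.7 CPM ± 4.52 in sham, 58.8 CPM ± 6.41 in AVF-CKD). The change was 0.19 ± 0.08 on the log2 scale (SE; edgeR adjusted p = 0.513).

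Of 16 genes of the retinoid pathway and the Cdx family, which set Hox domains in the embryo, 13 were tested and 0 called, with a median of 0.14 (8 positive, 5 negative). Rara, a retinoic acid receptor gene, had the smallest p (34.7 CPM ± 3.23 in sham, 38.99 CPM ± 2.25 in AVF-CKD). The change was 0.17 ± 0.07 on the log2 scale (SE; edgeR adjusted p = 0.502). The Cdx genes were silent or nearly so, with 9 counts for Cdx1, 0 for Cdx2 and 2 for Cdx4.

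All 20 Polycomb and trithorax genes, which keep Hox genes off or on through cell division, were on, and 0 were called (9 positive, 11 negative, median -0.0005). Eed, a subunit of the repressive complex PRC2, was the most abundant at 15.4 CPM per kilobase. Jarid2, a cofactor of PRC2, had the smallest p (37.5 CPM ± 5.89 in sham, 44.4 CPM ± 4.40 in AVF-CKD). The change was 0.24 ± 0.11 on the log2 scale (SE; edgeR adjusted p = 0.508).

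Of 35 other transcription factors of position and mesenchyme, 26 were tested and 16 were on, with 0 called, 12 positive and 14 negative fold changes and a median of -0.04. Prrx1, a factor of limb and craniofacial mesenchyme, was the most abundant at 27.97 CPM per kilobase. Hand2, a factor of heart, pharyngeal arch and limb mesenchyme, had the smallest p (0.578 CPM ± 0.169 in sham, 1.21 CPM ± 0.457 in AVF-CKD). The change was 1.07 ± 0.29 on the log2 scale (SE; edgeR adjusted p = 0.390). Otx2, a head gene expressed in front of the Hox domain, had 0 counts. At an unadjusted p below 0.05 in edgeR, 1 gene was higher and 0 lower in each of the TALE, retinoid and Polycomb lists. At that limit 1 was higher and 1 lower among the other factors, and 0 were higher and 1 lower among the noncoding RNAs. Over all genes tested, 5.26% were higher and 4.08% lower at that limit, so counts this small in short lists do not set these genes apart.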

How the data were processed

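Libraries were made from total RNA with a TruSeq RNA kit (v2), per the labels' protocols. The submitters' processing notes name GRCm38, TopHat2 2.1.0, featureCounts and edgeR without their roles; the release of the annotation and the strand setting are not given in these sources. The deposited table gives whole-number counts, used as deposited, and RPKM values made by the authors, used for an alternative alone. Other series' columns numbered 0.

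Groups came from the titles. Counts were filtered (filterByExpr), scaled (TMM) and tested with edgeR 4.0.16 (R 4.3.3; quasi-likelihood), group being the single term, and Benjamini-Hochberg adjustment over 18965 genes. CPM uses TMM-scaled sizes; levels divide it by the deposited length. Each of 30 pairs of libraries within a group differed beyond sampling noise, with 44.4 to 197 chi-square units for each degree of freedom. The fits were tested on simulated counts. Overlaps used GENCODE M21 of the same build, whose lengths equalled the deposited ones for 37 of 39 Hox genes, all but Hoxa2 and Hoxa7.

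Members, lists and tests were chosen with earlier results of these data known. Full values are given for the most abundant gene of each cluster and the 3 smallest p in each direction, and, of each list, for its most abundant gene and smallest p. A few genes chosen this way are left out of the text and figures. Hoxa10, Hoxc6, Hoxd9 and Hoxd3 were also described after their values were seen. Marker relations, and the counts without overlapping genes and at unadjusted p, were added after seeing the data. Alternatives were other scalings, filters, levels, DESeq2 1.42.0, limma 3.58.1 voom, a block and leaving out each library.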

Additional observations from a re-analysis of the deposited data

Results flagged for a closer look

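Among 46 sets of 6 libraries (23 tested Hox genes in 2 groups), 4 held a library far from the rest by Dixon's 95% critical value, and chance gives about 1 in 20, or 2.3. For Hoxb2 this was sham 1, with 23.7 CPM against 16.5 to 19.1 CPM. For Hoxb6 it was also sham 1, with 5.54 CPM against 2.49 to 3.13 CPM. For Hoxb4 it was AVF-CKD 5, with 14.6 CPM against 9.997 to 11.45 CPM. For Hoxc6 it was sham 5, with 1.37 CPM against 3.47 to 4.49 CPM. Sham 1 and AVF-CKD 5 also had the highest fibroblast marker sums. The flagged genes did not all follow those sums. In AVF-CKD 5, Hoxb2 was the lowest of all 12 libraries (13.9 CPM) and Hoxb6 was at 2.18 CPM, whereas Hoxb4 in sham 1 was the highest of sham (13.8 CPM). The part of the fibroblast markers in these values was not tested.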

How the results depend on the processing

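The number of genes called over the whole table was 0 in edgeR (1772 at an unadjusted p below 0.05), 0 in limma (2124) and 102 in DESeq2 (2002), and 0 to 1 when each library was left out (1 without AVF-CKD 3). No Hox gene was among those called in any of these fits. Hox genes lower at an unadjusted p below 0.05 numbered 3, against 5 in DESeq2 and 1 to 7 when each library was left out. Over all genes, 1252 to 2132 passed that limit, in either direction, when each library was left out. Of the Hox genes, 16 were on, 8 with a limit of 2 and 8 without those that overlap other models. The count stayed at 16 without each library in turn. When each library was left out, the log2 fold change of Hoxd8 ran from -0.0747 to 0.0498 and that of Hoxb8 from -0.123 to 0.263, both turning sign; Hoxa4, Hoxa5, Hoxb2, Hoxb5, Hoxc4 and Hoxd4 kept their sign in the fits run. Signs of the other genes described are not given for each fit, and 16 to 21 of the 23 tested Hox genes were lower in AVF-CKD over all fits with 23 tested. Without sham 1 the log2 ratio of the summed levels was -0.125 for Hoxa (-0.218 with all libraries), -0.0816 for Hoxb (-0.166) and -0.0998 for Hoxc (-0.198, and -0.337 without sham 5). The summed Hoxd cluster ran from -0.0158 to 0.1, below 0 without sham 3, sham 5, AVF-CKD 4 or AVF-CKD 5. With the title number as a replicate block, 0 genes were called and 4 Hox genes were lower at an unadjusted p below 0.05, where 2058 of all genes passed in either direction. Same-numbered libraries deviated together with correlations of -0.109 to 0.277, and 3 of 12 libraries correlated best with their own number. The labels do not say whether the numbers pair the samples, and so few libraries cannot decide it. The depth limits the 5′ genes, where a count of 0 is no proof of absence.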
